A study of Drosophila melanogaster with 12 samples.

Results

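The odorant-binding protein (Obp) genes of Drosophila melanogaster were followed in RNA of whole males on 12 Affymetrix arrays. A gene was taken as a member when a probe set assigned to that gene alone carried a current or older symbol beginning with Obp and a digit. Of 52 Obp genes in the RefSeq annotation, 48 met this rule, out of 11982 genes with such a probe set on the array. The gene lush entered through its older symbol, Obp76a. Obp50b, Obp50c and Obp57d had only probe sets shared with a second gene, and Obp83a had none under its name. Where a gene had more than 1 such probe set, as 3 did, the brightest on average stands for it.

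There were 4 groups of 3 arrays, and each array was made from 8 pooled whole males labelled wt, with no strain or age given. F1 males with a methylphenidate-exposed mother and a sucrose-exposed father were set against F1 males whose parents were both exposed to sucrose. Males that were themselves exposed to methylphenidate for 24 hours were set against males exposed to sucrose. Methylphenidate is a psychostimulant that blocks the dopamine transporter. The series' design text names a single cross for all F1 samples, and the sample labels, which name both crosses, were followed here. The labels give neither the duration of the parents' exposure nor any treatment of the F1 males themselves. Separate cultures are not stated for the replicates, and p-values therefore measure only the spread between these pools of flies.

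Odorant-binding proteins are small secreted proteins with conserved cysteines that hold hydrophobic ligands in a central pocket. In the antenna and the taste organs, support cells release them into the lymph around the sensory dendrites, where they contact odorants before or after the receptors do. Many members are made elsewhere. Some are transferred in the seminal fluid, and others are made in the fat body or in glia. In whole flies an antennal transcript is a small part of the RNA, and fewer cells of a type cannot be told apart from less RNA per cell.

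Values are log2 signals as the authors processed them. Array medians lay between 1.49 and 1.57, except 1.37 for F1 sucrose replicate 3, and within-group correlations between 0.995 and 0.997. The labelled sex was checked on marker lists: 23 accessory gland genes had a mean log2 signal of 7.17 to 7.60 per array, while 13 yolk, vitelline membrane and eggshell genes had 0.30 to 0.59, with 10 of the 13 averaging under 0.5. The yolk protein gene Yp3 was the member of that list that differed between groups, with 3.19 in F1 males of sucrose-exposed parents against 1.80 in sucrose-exposed males.

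The signal of the Obp genes reached from the floor of the array to its upper range. A mean under 0.5, close to the floor, was found for 18 of the 48 genes (37.5%, against 37.7% of all probe sets). A further 8 genes averaged between 0.5 and 3, 12 between 3 and 6, and 10 averaged 6 or more. Probe sets differ in brightness, so these values do not rank the genes. The genes near the floor included Obp59a, which is needed for sensing humidity, Obp57e, a taste bristle protein with a part in the response to fatty acids, and Obp46a, Obp47a, Obp47b and Obp85a. For such genes a decrease may be hidden, and a change in either direction is understated.

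**Figure D1:**
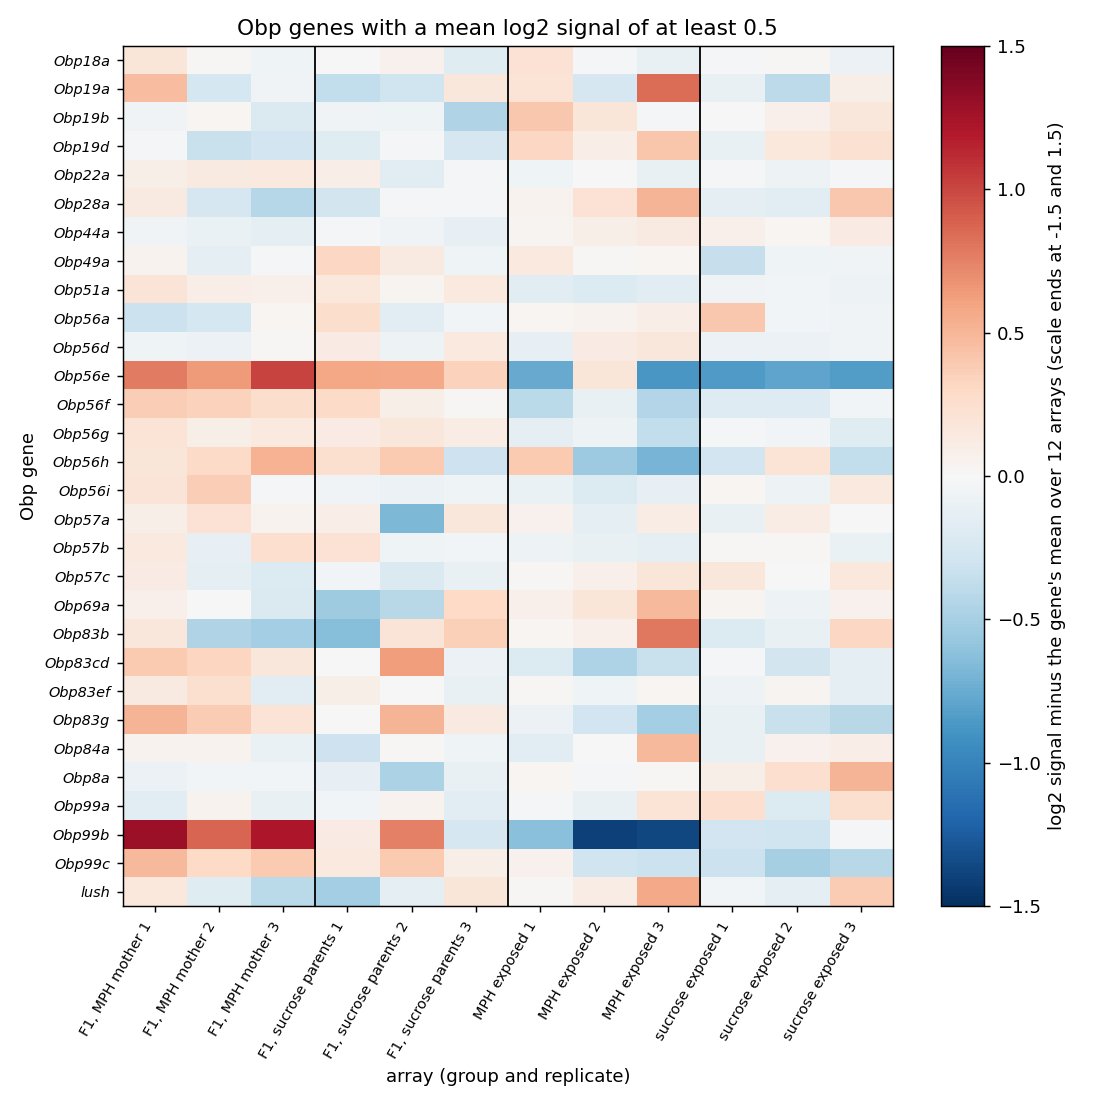
Log2 signal of the 30 Obp genes with a mean of at least 0.5, minus each gene's mean over the 12 arrays (colour), for every array in order of group (columns; MPH stands for methylphenidate, and numbers are replicates). Obp99b runs from 8.63 in an F1 male sample of a methylphenidate-exposed mother to 5.95 in a methylphenidate-exposed sample, and Obp56e is high in all 6 F1 arrays.

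In methylphenidate-exposed males, Obp99b fell and no other Obp gene passed the threshold. Obp99b, also known as tsx, is a gene of fat cells with sex-dependent expression. Its log2 signal was 6.72, 5.95 and 5.98 in methylphenidate-exposed males, against 7.05, 7.05 and 7.33 in sucrose-exposed males. All 3 methylphenidate arrays lay below all 3 sucrose arrays. The means were 6.21 ± 0.437 and 7.14 ± 0.159 (SD, n = 3 each), 1.90-fold lower with the drug (log2 change -0.93 ± 0.23 SE, limma adjusted p = 0.0441). The other 47 genes had log2 changes between -0.27 and 0.40. Changes were positive for 24 and negative for 24 of the 48, with a median of -0.0018 against -0.02 over all probe sets.

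A share of 2.08% of the Obp genes was called, while 3.35% of all 18769 probe sets were called, 2.38% as higher and 0.97% as lower. With 1 probe set per gene in the fit, as the members were taken, 5.12% of 11982 genes were called. The call of Obp99b stood close to the threshold. It was kept under 11 of 23 alternative settings, with adjusted p between 0.0069 and 0.16 over all of them and a log2 change between -1.20 and -0.79. It was lost without any of the sucrose-exposed replicates (adjusted p = 0.109, 0.0823 and 0.159 in order of replicate number) and without methylphenidate-exposed replicate 2 or 3 (adjusted p = 0.143 and 0.145). Leaving out F1 sucrose replicate 1 or any F1 array of methylphenidate-exposed mothers, which enter through the shared estimate of spread, gave adjusted p between 0.0526 and 0.0609. Without methylphenidate-exposed replicate 1, the highest of its group, the log2 change was -1.18 and the limma adjusted p = 0.00823.

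Other values moved with this contrast. GAPDH signal at the 3′ end exceeded that at the 5′ end, a measure of RNA integrity, by 1.504 ± 0.00299 on methylphenidate arrays and 1.622 ± 0.086 on sucrose arrays (log2, SD, n = 3 each). With it as a covariate, Obp99b had a log2 change of -1.20 and adjusted p = 0.16. Of 14 measured genes of the fat body list, 4 were higher and 3 lower with methylphenidate. The list also holds Hml, a blood cell gene, and GLaz, named for glia, neither of which was called here. The mean log2 signal of the 14 genes per array was 4.76 to 5.33 against 4.79 to 4.96 in sucrose-exposed males. Among them fit, a secreted peptide of fat cells, was lower (log2 change -1.76) and the sorbitol dehydrogenase gene Sodh1 higher (1.34), and Yp1 lay at the floor. Of 23 measured midgut markers, 11 were lower and 3 higher, with a median log2 change of -0.58 and a mean log2 signal of 4.50 to 4.97 with methylphenidate against 5.14 to 5.53 with sucrose. Of 31 testis markers 1 was lower, with a median of -0.16 and 15 at an unadjusted p under 0.05 by limma (15.3% of all probe sets were). The part of these tissues in the Obp99b value was not tested.

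**Figure D2:**
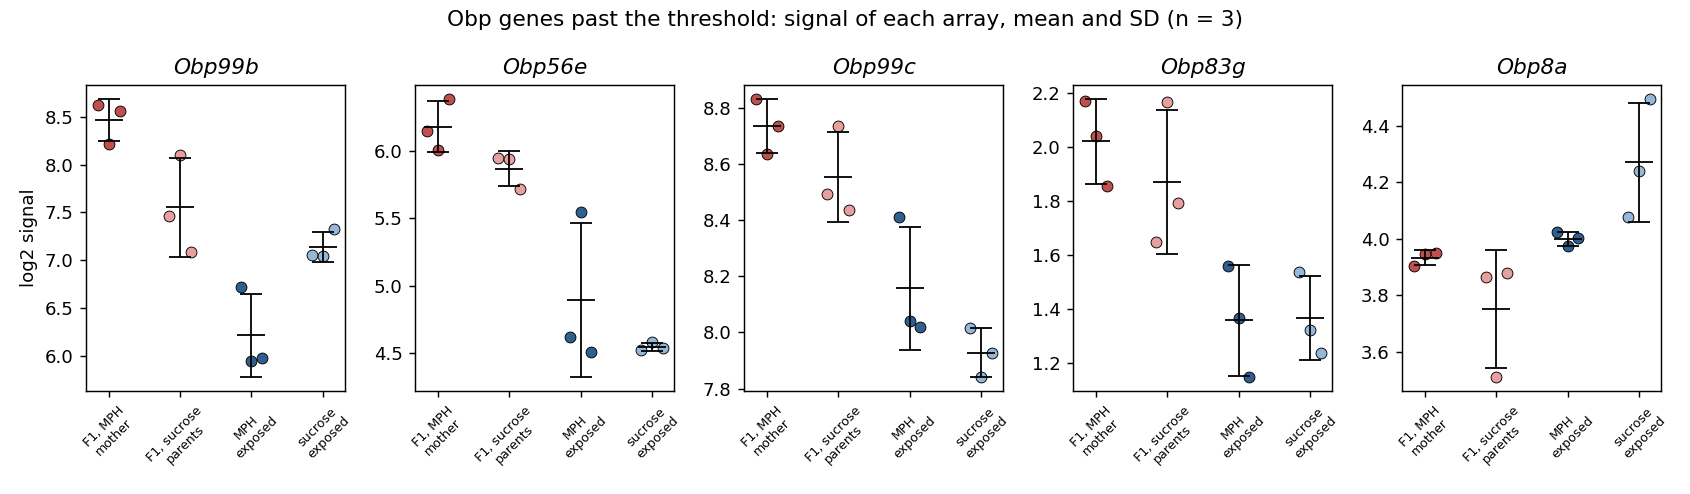
Log2 signal on each array (points), with group mean and SD (bars, n = 3), for the 5 Obp genes that passed the threshold in any comparison; MPH stands for methylphenidate, and each panel has its own axis. Obp99b is lowest in methylphenidate-exposed males, with a mean of 6.21, and highest in F1 males of methylphenidate-exposed mothers, with 8.47.

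Next to Obp99b, the smallest p-values in exposed males belonged to Obp56b, Obp8a and Obp49a, none of which passed. Obp56b had 0.10, -0.14 and -0.11 with methylphenidate against 0.19, 0.20 and 0.11 with sucrose, all near the floor (limma adjusted p = 0.138). Obp8a, which encodes a seminal fluid protein, had 4.022, 3.973 and 4.004 against 4.08, 4.24 and 4.50 (log2 change -0.27 ± 0.11 SE, limma adjusted p = 0.236). Obp49a, a taste organ protein by which bitter compounds suppress the response to sugar, had 4.33, 4.19 and 4.21 against 3.83, 4.11 and 4.12 (log2 change 0.22 ± 0.10 SE, limma adjusted p = 0.334). The values of each of these 3 genes did not overlap between the groups. Obp8a had -0.16 without sucrose-exposed replicate 3 and Obp49a 0.13 without sucrose-exposed replicate 1. Over the family, the 3 and 3 values did not overlap for 3 genes that were higher and 6 that were lower with methylphenidate, and 9.28% and 12% of all probe sets were separated in these directions. The 95% intervals of 47 of the 48 genes lay within a log2 change of 1 either way, and those of 38 within 0.5.

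In F1 males, no Obp gene passed the threshold for maternal methylphenidate. By limma 3 of the 48 genes had an unadjusted p under 0.05 (8.06% of all probe sets did), and 0.00533% of all probe sets were called. The gene with the smallest p was again Obp99b, with 8.63, 8.22 and 8.56 in sons of methylphenidate-exposed mothers against 7.46, 8.11 and 7.09 in sons of sucrose-exposed parents. All 3 values of the first group were above all 3 of the second, where the spread was wider (8.47 ± 0.22 and 7.55 ± 0.514, SD, n = 3 each). The log2 change was 0.92 ± 0.23 SE, with a 95% interval of 0.42 to 1.42, and did not pass (limma adjusted p = 0.31). Fat body markers had a mean log2 signal of 5.80 to 6.02 against 5.26 to 5.66 in these groups. None of the 14 was called, while 6 had an unadjusted p under 0.05 by limma (8.06% of all probe sets did). Their median log2 change was 0.17, against 0.03 over all probe sets, and their part in the Obp99b value was not tested.

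The next smallest p-values in F1 males were those of Obp99d, Obp56i and Obp22a. Obp99d was at the floor in both groups (0.21, 0.09 and 0.27 against -0.19, 0.0026 and -0.08, limma adjusted p = 0.519). The seminal fluid gene Obp56i had 3.78, 3.96 and 3.58 in sons of methylphenidate-exposed mothers against 3.53, 3.51 and 3.52 in sons of sucrose-exposed parents (log2 change 0.25 ± 0.09 SE, limma adjusted p = 0.549). Obp22a, of the same list, had a log2 change of 0.15 (limma adjusted p = 0.645). Without 1 array, Obp56i had 0.16 (F1 replicate 2 of methylphenidate-exposed mothers left out) and Obp22a 0.085 (F1 sucrose replicate 2 left out). Values did not overlap for 5 genes that were higher and none that was lower, and 7.56% and 3.94% of all probe sets were separated in these directions. The median log2 change of the 48 genes was 0.05, against 0.03 over all probe sets. The largest negative change was -0.23, in Obp83b. For 41 genes the 95% interval lay within a log2 change of 0.5 either way.

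The effect of methylphenidate on Obp99b differed between F1 males and exposed males. Exposed males received the drug themselves, while for F1 males only the mother is labelled as exposed to it. Generation, route of exposure and handling therefore cannot be told apart. The difference of the effects, F1 minus exposed, was 1.84 ± 0.33 SE on the log2 scale, with a 95% interval of 1.14 to 2.55 (limma adjusted p = 0.00813). It passed under 21 of 22 alternatives and was lost with trend and robust settings (adjusted p = 0.0549). Of the 14 fat body markers 3 had a higher effect in F1 males, with differences of 2.80 in fit, 1.55 in AkhR and 1.24 in Lsd-1 (limma adjusted p = 0.000823, 7.87e-05 and 0.000445). AkhR encodes the receptor of the adipokinetic hormone. A lower effect was found for 2, with -1.32 in Sodh1 and -0.93 in tobi (limma adjusted p = 0.00171 and 0.0109). Of 23 midgut markers 6 had a higher and 3 a lower effect, and the part of either tissue in the Obp99b difference was not tested. No other Obp gene passed. A share of 2.08% of the Obp genes was called, beside 2.09% of all probe sets (0.671% with a higher effect in F1 males). With 1 probe set per gene in the fit, 3.05% of 11982 genes were called. The seminal fluid genes Obp56i, Obp8a and Obp56f followed with differences of 0.43, 0.45 and 0.36 (limma adjusted p = 0.123, 0.171 and 0.212). Obp56i was lower in each of the 3 methylphenidate-exposed arrays (3.49, 3.38 and 3.47) than in any sucrose-exposed array (3.62, 3.51 and 3.73). The margin was small, and the log2 change of -0.18 did not pass (limma adjusted p = 0.404). The order in F1 males was the opposite, also without a call. Of all probe sets 12% were separated as lower in exposed males and 7.56% as higher in F1 males.

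**Figure D3:**
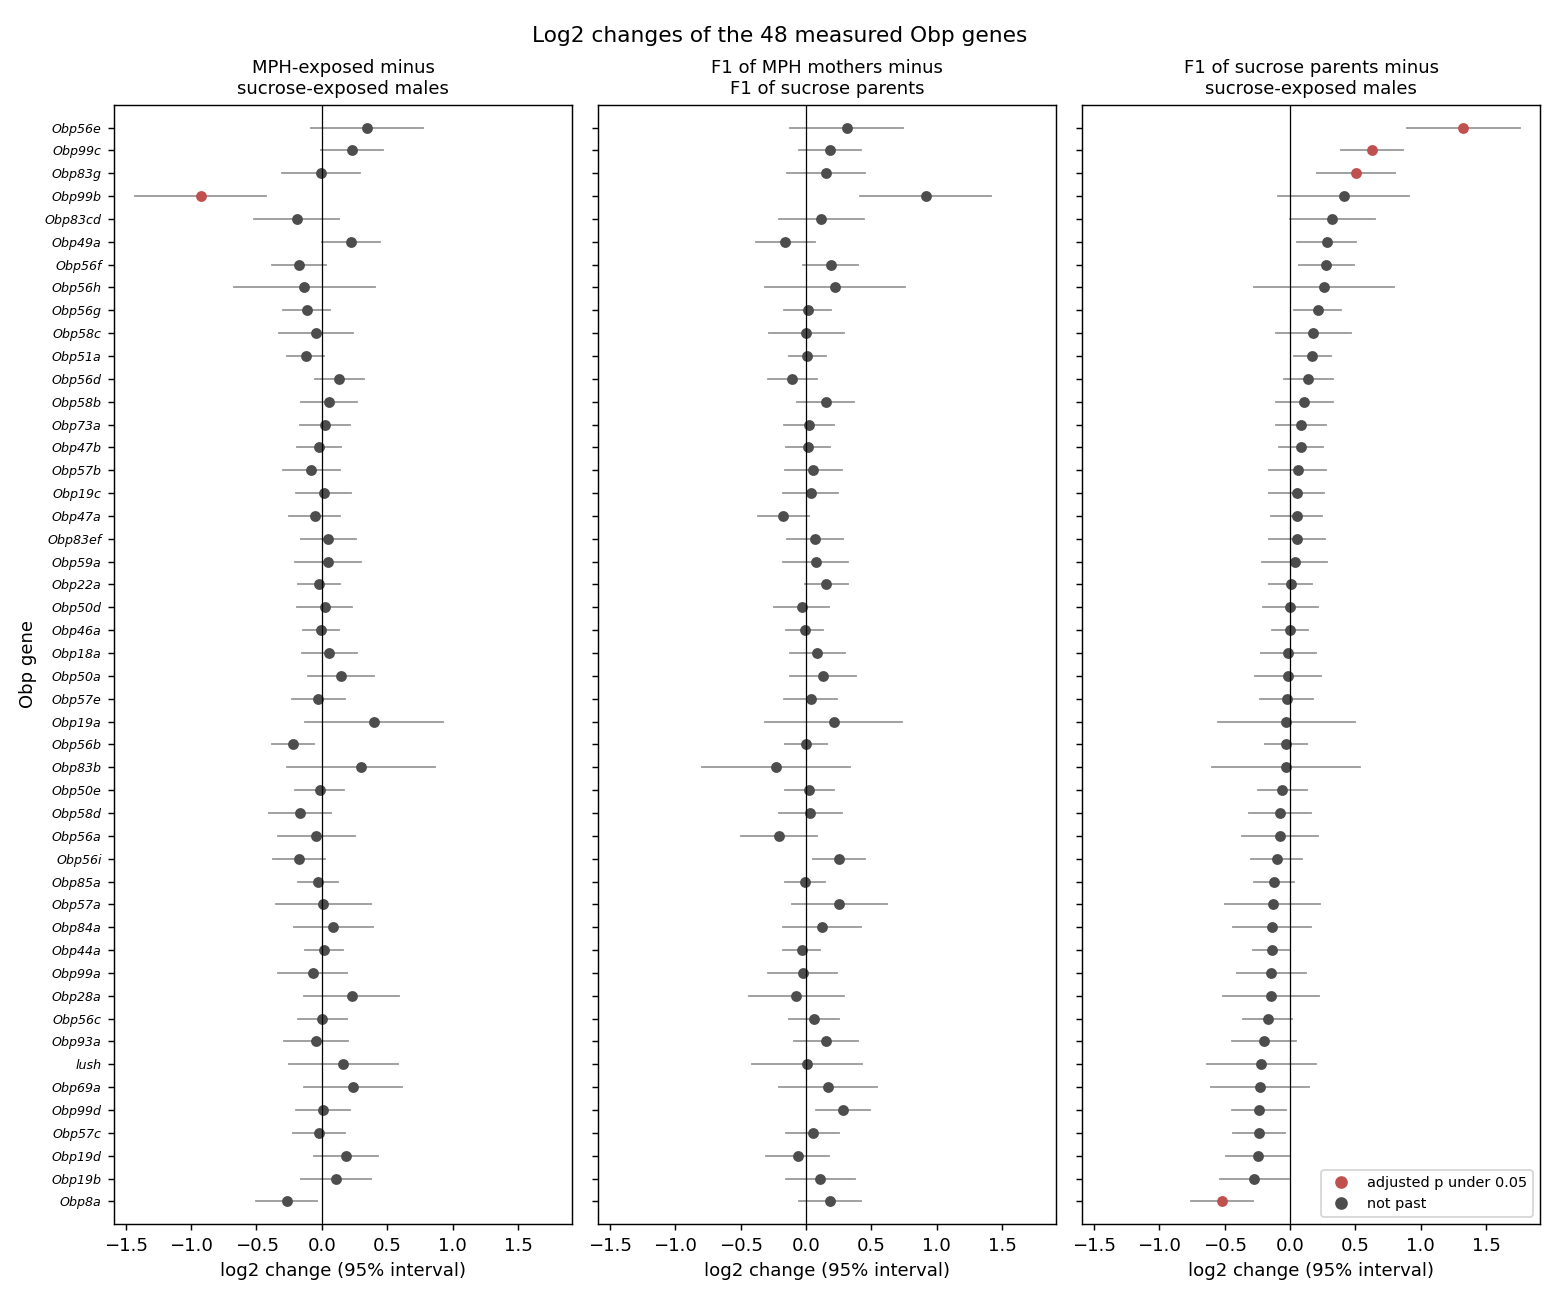
Log2 change (points) with 95% interval (lines) of each of the 48 Obp genes in the 3 comparisons of groups, in order of the change between generations; MPH stands for methylphenidate, and red marks a limma adjusted p under 0.05. Obp99b at -0.93 is the red point of the left panel, the middle panel has none, and Obp56e, Obp99c, Obp83g and Obp8a are red in the right panel.

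Between F1 males of sucrose-exposed parents and sucrose-exposed males, 3 Obp genes rose and 1 fell in F1 males. Food, age and handling may have differed between these groups and cannot be told apart from the generation. The sucrose-exposed arrays are the same as those used for the comparison of exposed males. Obp56e, a seminal fluid gene, had the largest change, with 5.95, 5.94 and 5.72 in F1 males against 4.52, 4.58 and 4.54 in sucrose-exposed males. The groups were far apart relative to their spread (5.87 ± 0.132 and 4.55 ± 0.03, SD, n = 3 each), a 2.504-fold difference (log2 change 1.32 ± 0.20 SE, limma adjusted p = 0.000893). F1 males of methylphenidate-exposed mothers had 6.15, 6.01 and 6.39. Methylphenidate-exposed males had 4.62, 5.55 and 4.50, so a single pool stood above the other exposed samples.

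Obp99c had 8.49, 8.73 and 8.43 in F1 males of sucrose-exposed parents, against 8.02, 7.84 and 7.93 in sucrose-exposed males (1.54-fold, log2 change 0.63 ± 0.11 SE, limma adjusted p = 0.00172). All F1 values were above all sucrose-exposed values. Obp83g had 1.65, 2.17 and 1.79 against 1.54, 1.32 and 1.24 (log2 change 0.50 ± 0.14 SE, limma adjusted p = 0.0182). Its groups were separated by a small margin, and its call was lost without sucrose-exposed replicate 2 or 3 or F1 replicate 2 of sucrose-exposed parents (adjusted p = 0.0532, 0.0794 and 0.0887). Obp8a fell, with 3.86, 3.51 and 3.88 in F1 males against 4.08, 4.24 and 4.50 in sucrose-exposed males (log2 change -0.52 ± 0.11 SE, limma adjusted p = 0.00442). The calls of Obp56e, Obp99c and Obp8a were kept under all 23 alternatives. Markers of other tissues also differed in this contrast: 8 of 14 fat body genes were higher and 2 lower in F1 males, 16 of 23 midgut genes were higher, and 22 of 31 testis and 3 of 9 head and sensory genes were lower. Their part in the Obp values was not tested.

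The 4 calls were 8.33% of the Obp genes, beside 20.5% of all probe sets (6.33% higher and 14.2% lower in F1 males). With 1 probe set per gene in the fit, 29.3% of 11982 genes were called. Centring each array on its median turned the split of all probe sets to 1740 higher and 1779 lower, in place of 1188 and 2666, and that of the Obp genes to 7 higher and 1 lower. Without F1 sucrose replicate 3, the array with the low median, 5 Obp genes were higher and 2 lower. Values did not overlap for 6 higher and 7 lower Obp genes, and 11.6% and 21.2% of all probe sets were separated in these directions (32.9% in either). The 44 genes not called had changes between -0.27, in Obp19b, and 0.41, in Obp99b (7.46, 8.11 and 7.09 against 7.05, 7.05 and 7.33, limma adjusted p = 0.267). The Obp99b value was 0.13 without F1 sucrose replicate 2 and 0.64 without F1 sucrose replicate 3.

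Over all 6 F1 arrays against all 6 exposed arrays, whatever the treatment, 6 Obp genes were higher without overlap and 2 were lower. This happened for 3.96% and 5.83% of all probe sets. The 6 were Obp56e (5.72 to 6.39 in F1 males against 4.50 to 5.55), Obp56f (6.90 to 7.25 against 6.44 to 6.83), Obp56g (10.4 to 10.5 against 9.90 to 10.3), Obp51a (8.62 to 8.77 against 8.38 to 8.55), Obp99c (8.43 to 8.83 against 7.84 to 8.41) and Obp83g (1.65 to 2.17 against 1.15 to 1.56). Of these, Obp56e, Obp56f, Obp56g and Obp51a are seminal fluid genes, and Obp56g is needed in males for mating plug formation and the female's response after mating. The 2 that were lower were Obp8a (3.51 to 3.95 against 3.97 to 4.50) and Obp44a, a gene expressed in glia (8.81 to 8.93 against 8.98 to 9.09). These separations were not tested as such.

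The seminal fluid members gave calls in both directions between the sucrose groups. Of 7 such genes (Obp8a, Obp22a, Obp51a, Obp56e, Obp56f, Obp56g and Obp56i), 1 rose and 1 fell, where 20.5% of all probe sets were called, with a median log2 change of 0.17, against -0.03 over all probe sets. Obp56f, Obp56g and Obp51a had changes of 0.28, 0.21 and 0.17 (limma adjusted p = 0.0575, 0.0952 and 0.0886). Obp22a differed by 0.0049 and Obp56i by -0.10. In the same contrast 8 of 23 accessory gland markers were higher and 1 lower, with a median of 0.13, and their mean log2 signal was 7.53 to 7.60 in F1 males of sucrose-exposed parents against 7.35 to 7.41 in sucrose-exposed males. Of 6 markers of the ejaculatory duct and bulb, a list that also holds Obp51a, 2 were higher. These were Gld and Dup99B, and Dup99B is also counted among the accessory gland markers. The part of these organs' RNA in the Obp values was not tested. With methylphenidate none of the 7 genes passed in either generation, and their median log2 change was -0.12 in exposed males and 0.18 in F1 males. In exposed males their changes ran from -0.27 to 0.34, with Obp56e as the positive one. In F1 males they ran from 0.0091 in Obp51a to 0.31 in Obp56e.

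None of the 10 measured antennal members passed in any comparison. This list holds Obp19a, Obp19d, Obp28a, Obp56d, Obp59a, Obp69a, Obp83b, Obp84a, Obp99a and lush. In methylphenidate-exposed against sucrose-exposed males their changes lay between -0.07 and 0.40, with a median of 0.17. In F1 males they lay between -0.23 and 0.21 by maternal exposure, with a median of -0.0090, and between the sucrose groups the median was -0.14. The gene lush, whose protein is needed in trichoid sensilla to detect the male pheromone cis-vaccenyl acetate, had 1.97, 2.06 and 2.52 in methylphenidate-exposed males against 1.92, 1.80 and 2.34 in sucrose-exposed males. It had 2.11, 1.77 and 1.55 in F1 males of methylphenidate-exposed mothers, against 1.45, 1.82 and 2.13 in F1 males of sucrose-exposed parents. The groups overlapped in both pairs, and the log2 changes of 0.16 ± 0.20 and 0.0070 ± 0.20 (SE) did not pass (limma adjusted p = 0.795 and 0.997).

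In each group most antennal members were highest on the same array. Replicate 1 was the highest of its group for 7 of the 10 genes in F1 males of methylphenidate-exposed mothers, and replicate 3 for 7 in F1 males of sucrose-exposed parents. Replicate 3 was also the highest for 9 in methylphenidate-exposed males and for 8 in sucrose-exposed males. These arrays were picked as the ones where the antennal genes were most often highest, and over all probe sets the shares highest on them were 35.5%, 18.3%, 33.7% and 30.6%. Obp83b, expressed in trichoid sensilla, is an example: it had 4.93, 4.31 and 4.25 in F1 males of methylphenidate-exposed mothers and 4.12, 4.95 and 5.11 in F1 males of sucrose-exposed parents. In exposed males it had 4.78, 4.83 and 5.55 with methylphenidate and 4.56, 4.65 and 5.07 with sucrose. Obp28a and Obp19a were likewise highest on replicate 3 of the methylphenidate-exposed males (3.09 and 2.90).

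Other lists also leaned to single arrays of a group. Of 31 testis markers 24 were highest on F1 sucrose replicate 1 and 24 on sucrose-exposed replicate 1 (40.1% and 34.9% of all probe sets were). On methylphenidate-exposed replicate 3, 19 of 23 accessory gland markers were lowest (30.5% of all probe sets). On sucrose-exposed replicate 1, 19 of 23 midgut markers were lowest (34.4% of all probe sets). On the 4 arrays picked for the antennal genes, the 7 seminal fluid members were highest for 3, 1, 1 and 4 genes in the same order of groups. The median deviation of the antennal genes from their group mean was 0.176, 0.174, 0.245 and 0.142 on the 4 arrays. The 9 measured head and sensory markers, of which 4 averaged under 0.5, had median deviations of 0.08, -0.09, 0.03 and -0.04 there. For the 23 measured genes of the carrier list given below, lush among them, these were 0.083, -0.032, -0.014 and 0.0072. The share of antennal tissue in each pool was not measured, and the spread it may add was not tested. The SE of Obp83b, 0.26, was the largest among the 48 genes.

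**Figure D4:**
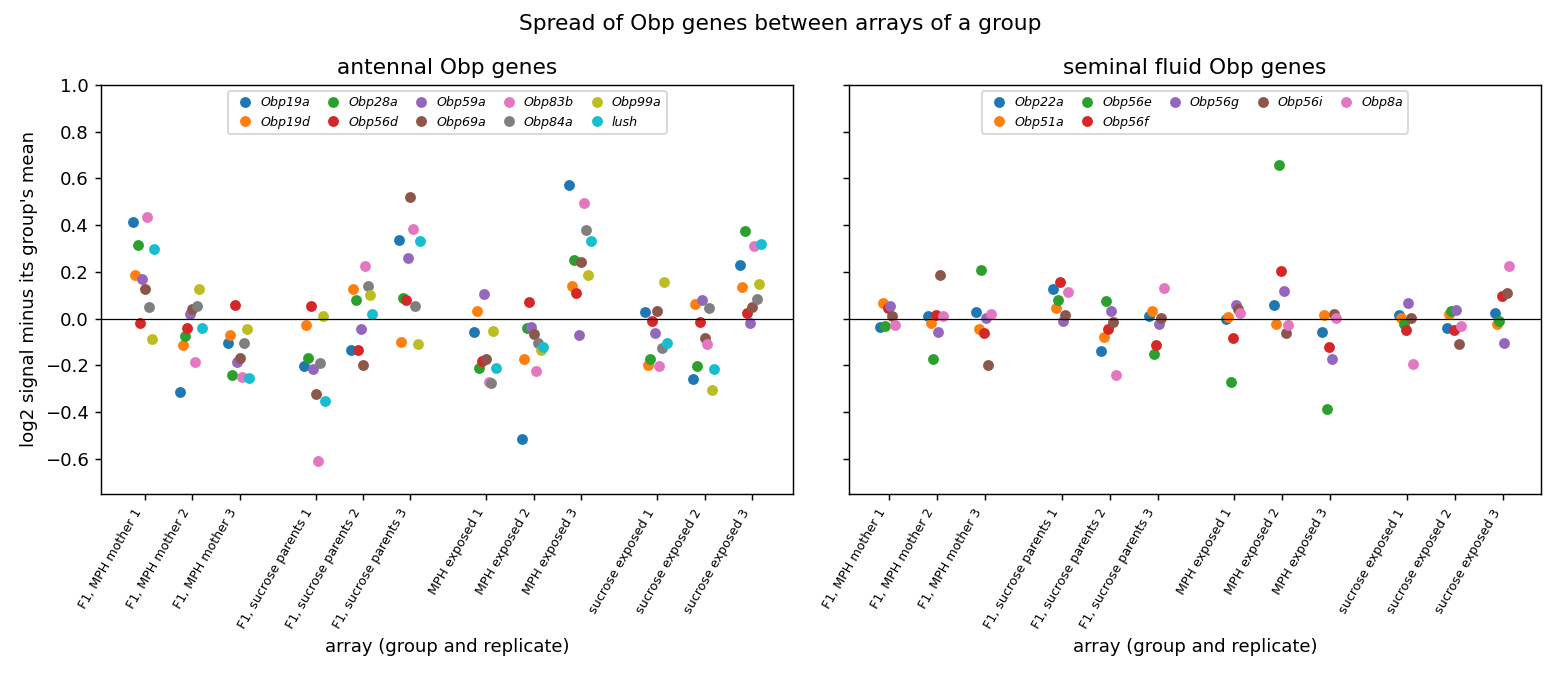
Log2 signal of each gene on each array minus the mean of its group, for 10 antennal (left) and 7 seminal fluid Obp genes (right); MPH stands for methylphenidate, and numbers are replicates. Most antennal genes sit above 0 on the same array of a group, such as 9 of 10 on methylphenidate-exposed replicate 3, while Obp56e is the widest of the seminal fluid genes.

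Neighbouring Obp genes are given here with their changes side by side, and whether they move together was not tested. By the RefSeq annotation of Release 6, 26 of the 48 genes lie on chromosome arm 2R, 11 on 3R, 6 on X, 3 on 3L and 2 on 2L. Of the 48, 29 belong to 10 groups of neighbours with gaps of at most 20 kb between Obp genes. Obp99b has Obp99d as its neighbour on 3R, and Obp99d stayed near the floor, between -0.19 and 0.35 on all arrays. In F1 males the changes by maternal exposure were 0.92 for Obp99b and 0.28 for Obp99d, and in exposed males -0.93 and 0.0096. In the F1 pair both genes were higher without overlap, as were 7.56% of all probe sets. Neither was called there (limma adjusted p = 0.31 and 0.519). In the row of 6 genes from Obp56a to Obp56f on 2R, the changes between the sucrose groups ran from -0.17 to 1.32: Obp56e rose, while Obp56d and Obp56f on its sides had 0.14 and 0.28 and did not pass. On 3R, Obp83g rose beside Obp83cd and Obp83ef, which had 0.32 and 0.05 and did not pass. The 4 genes from Obp19a to Obp19d on X, among them Obp19b, a taste organ protein for amino acids, had changes between -0.27 and 0.05 in that contrast, and the 3 from Obp57a to Obp57c between -0.24 and 0.06.

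Other parts of the chemosensory system gave few values above the floor. A mean under 0.5 was found for 54 of 57 odorant receptor, 52 of 53 ionotropic receptor and 55 of 56 gustatory receptor genes. Between the sucrose groups 1 odorant receptor gene fell in F1 males (Or33b, log2 change -0.79, limma adjusted p = 0.0121), as did 1 ionotropic receptor gene (Ir100a, -0.32, adjusted p = 0.00485) and 2 gustatory receptor genes. These were Gr32a, a receptor for bitter compounds and male pheromone (-0.44, adjusted p = 0.0254), and Gr93b, at the floor in both groups. Ir100a had means of 0.17 in F1 males of sucrose-exposed parents and 0.49 in sucrose-exposed males, also near the floor. Of all probe sets 14.2% were called lower in this contrast. Against the same sucrose-exposed arrays, Ir100a was lower in methylphenidate-exposed males, at 0.21 against 0.49 (log2 change -0.28, limma adjusted p = 0.0419), with both groups near the floor. In that comparison 0.97% of all probe sets were called lower. The difference of effects, which uses these arrays too, was 0.41 for Ir100a (limma adjusted p = 0.0483), where 0.671% of all probe sets were called higher.

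A further list had 23 measured genes (among them lush, Snmp genes, CheA and CheB genes, pickpocket channels of pheromone sensing and chemosensory proteins). Of these, 1 rose and 3 fell between the sucrose groups, where 6.33% of all probe sets were called higher and 14.2% lower. None passed with methylphenidate, where 3.35% of all probe sets were called in exposed males. The one that rose was Phk-3, of the chemosensory protein family, with means of 5.71 in F1 males of sucrose-exposed parents and 4.61 in sucrose-exposed males (log2 change 1.11, limma adjusted p = 0.00158). CheA7a and CheA75a were among those that fell (log2 change -0.41 and -0.47, limma adjusted p = 0.0142 and 0.0208). In F1 males none of these receptor and carrier genes passed by maternal exposure.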

How the data were processed

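The authors deposited log2 signals, 1 per probe set and array, and the submitters' processing notes name RMA, affy and limma. Their versions and settings were not given in the labels. The log base was checked on the hybridization controls: Cre minus BioB was 5.72, 0.944 of the log2 of their nominal ratio. No detection call came with the values, and between 36.8% and 38.8% of probe sets lay under 0.5 on each array. The 183 control probe sets among 18952 were dropped, which left 18769 to test. Genes were named from the platform annotation, with symbols of 13544 of 13647 single-gene probe sets updated through RefSeq.

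All 12 arrays entered 1 fit of 4 group means (lmFit and eBayes of limma 3.58.1 under R 4.3.3). The threshold was a two-sided Benjamini-Hochberg adjusted p under 0.05 over all probe sets. Intervals are 95% intervals of this fit. Plots used matplotlib 3.10.9. On simulated data the fit called 76.8% of log2 changes of 0.5 for the exposed pair of groups and 77.6% for the F1 pair. It called 79.8% between the sucrose groups and 41.9% for the difference of effects. These data held independent normal noise and 200 changed probe sets per comparison. The shares therefore do not give the chance of a call in the real data. In the real F1 pair 1 probe set was called, and Obp99b with a log2 change of 0.92 was not. The number of arrays limits the precision.

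Members and lists were chosen with earlier results of these data known, and lists are described by counts and medians only. Named were Obp genes past the threshold, the 4 with the smallest p in each contrast, lush, and up to 3 genes of each receptor or carrier list. Obp19a, Obp28a, Obp83b, Yp3, fit, AkhR, Lsd-1, Sodh1, tobi, Yp1 and others named for neighbourhood, role or separation were chosen after their values were seen. Alternatives were a fit of only the compared groups, a replicate block, removal of the dimmest 30% or 50%, quantile normalization, median centring, trend and robust eBayes, array weights, 1 probe set or the mean of the probe sets per gene, the GAPDH covariate, and leaving out each array.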

Additional observations from a re-analysis of the deposited data

Results flagged for a closer look

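The effect of methylphenidate on Obp99b differed between F1 males and exposed males by the test of the difference itself, with 1.84 ± 0.33 (SE) on the log2 scale (limma adjusted p = 0.00813). In the F1 pair only the mother is labelled as exposed to the drug, so generation and route of exposure cannot be told apart. The effect was 0.92 in F1 males, where it did not pass (limma adjusted p = 0.31). In exposed males it was -0.93 (limma adjusted p = 0.0441), a call kept under 11 of 23 alternatives. The 3 and 3 values did not overlap in either pair of groups. Of all probe sets 7.56% were separated as higher in the F1 pair and 12% as lower in the exposed pair.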

How the results depend on the processing

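Numbers of Obp genes past the threshold depended on the processing in exposed males and between the sucrose groups. In exposed males the count of 1 went to 0 with the replicate block, with trend and robust settings and with the GAPDH covariate (Obp99b, adjusted p = 0.0687, 0.138 and 0.16), and ran from 0 to 1 when arrays were left out. The difference of effects kept 1 gene except with trend and robust settings, which gave 0. In F1 males the count was 0 under all 23 alternatives, with 3 genes at an unadjusted p under 0.05 in limma. Between the sucrose groups the count was 7 without the dimmest 50%, 8 with median centring, 8 with trend and robust settings and 3 to 7 when arrays were left out, against 4. Replicate numbers did not pair the arrays: deviations of same-numbered arrays correlated between -0.174 and 0.133 over 18 pairs, and 1 of 12 arrays correlated best with its own number. With the replicate block 4 genes passed between the sucrose groups and 1 for the difference.

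Direction was turned in small values that passed under no setting. For lush in F1 males, 0.0070 became -0.065 with quantile normalization, -0.057 with median centring and -0.010 with the GAPDH covariate, and lay between -0.17 and 0.17 when arrays were left out. When arrays were left out, its change in exposed males lay between -0.0021 and 0.32 and its difference of effects between -0.33 and 0.0091. Obp49a in exposed males went to -0.032 with the GAPDH covariate. The cause was not tested. The 30% filter kept 34 and the 50% filter 26 of the 48 genes. Genes near the floor limit what these arrays can show.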

Other observations

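Obp50b and Obp50c, neighbours on 2R, share 2 probe sets, and their signals cannot be assigned to either gene. The brighter one was lower in F1 males of sucrose-exposed parents than in sucrose-exposed males (log2 change -0.48, limma adjusted p = 0.0169), and the dimmer one had -0.54 (adjusted p = 0.0526). With methylphenidate neither passed, at -0.30 and -0.29 in exposed males. The 2 probe sets shared by Obp57d and the cuticle protein gene Cpr57A had changes between -0.13 and 0.18 over the 3 comparisons of groups, with none past the threshold.

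Obp19a, Obp19c and Obp59a have a second probe set. For Obp19a the second gave 0.33 in exposed males, beside 0.40 for the brighter one, and neither passed (limma adjusted p = 0.221 and 0.505). Both probe sets of Obp19c and of Obp59a lay under 0.5 on all arrays.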
